A study of Homo sapiens with 10 samples.

Results

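Heat shock proteins and their co-chaperones were followed as RNA in PC-3 cells, a line from human prostate cancer, grown as 3D spheroids. The 10 genes HSPA1A, HSPA1B, HSPA8, HSP90AA1, HSP90AB1, HSPB1, HSPD1, HSPE1, DNAJB1 and BAG3 were taken by symbol from the 18144 genes of the table. No threshold on their values was used, but earlier results of these data were known when they were chosen. All 10 were listed and all 10 passed the filter on low values. Spheroids labelled wild type received no drug, topotecan as a single bolus on day 0 (CON in the labels, called CONV-TOPO here) or topotecan as daily fractions over an extended exposure (EE in the titles and METRO in the treatment label, called EE-TOPO here). Topotecan is an inhibitor of topoisomerase I. Untreated spheroids of days 0, 3 and 7 and spheroids of both regimens on days 3 and 7 gave 7 libraries, 1 per treatment and day. Day-1 libraries (3) were not analysed here. The later time point is day 7 in the labels, whereas the study's text describes exposure over weeks, so the time behind the day-7 values is uncertain. There were no replicates, so a ratio of single libraries compares those libraries, and its 95% interval covers counting error only. The design rests on 1 cell line, and bulk RNA from spheroids cannot separate fewer cells expressing a gene from less of its RNA per cell.

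Heat shock proteins are molecular chaperones, which bind unfolded protein and keep it from aggregating. HSF1, the master transcription factor of the heat shock response, binds repeats of short nGAAn units near the start of these genes when unfolded protein accumulates. The HSP70 proteins HSPA1A and HSPA1B and the small heat shock protein HSPB1 (HSP27) are classical inducible chaperones, while HSPA8 (HSC70) and HSP90AB1 (HSP90 beta) serve unstressed cells. DNAJB1 (HSP40) delivers clients to HSP70 and BAG3 exchanges its nucleotide and links it to autophagy. HSPD1 (HSP60) and HSPE1 (HSP10) form the folding chamber of mitochondria. For comparison the genes were grouped as inducible (HSPA1A, HSPA1B, HSP90AA1, HSPB1, DNAJB1 and BAG3), constitutive (HSPA8 and HSP90AB1) and mitochondrial (HSPD1 and HSPE1).

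The promoters differed in their exact matches to paired nGAAn units. In the 250 bases before each RefSeq start (GRCh38.p14), 16 windows of the 10 genes were searched for GAANNTTC and TTCNNGAA. Both motifs read the same on either strand, and they overlap where 3 units follow one another. Single units and units that depart from these letters were not counted. A match was present in 8 of the 16 windows, 1 in each of 8 genes, against 11.6% of all 35116 promoter windows in the reference and 8.81% of the 11932 windows of genes with at least 10 CPM. HSPE1 and BAG3 had no match in these windows. A run of 3 units was present in 1 window each of HSPA8, HSP90AA1, HSP90AB1 and HSPD1, against 0.441% of all windows and 0.327% of those of genes with at least 10 CPM. Thus both cytosolic classes and 1 mitochondrial gene held such runs, while HSPA1A, HSPA1B and HSPB1, the 3 members with the highest day-7 ratios described later, held a single match each. Their windows are shown with those of HSPA8, HSP90AA1 and HSPD1, which had longer runs and no such ratios, with matches in capitals.

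HSPA1A, chr6:31815293-31815542, plus strand: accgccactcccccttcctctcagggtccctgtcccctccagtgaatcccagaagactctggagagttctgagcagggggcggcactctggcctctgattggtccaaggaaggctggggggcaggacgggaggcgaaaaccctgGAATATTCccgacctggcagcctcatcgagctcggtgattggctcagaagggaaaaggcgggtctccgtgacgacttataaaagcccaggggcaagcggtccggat
HSPA1B, chr6:31827488-31827737, plus strand: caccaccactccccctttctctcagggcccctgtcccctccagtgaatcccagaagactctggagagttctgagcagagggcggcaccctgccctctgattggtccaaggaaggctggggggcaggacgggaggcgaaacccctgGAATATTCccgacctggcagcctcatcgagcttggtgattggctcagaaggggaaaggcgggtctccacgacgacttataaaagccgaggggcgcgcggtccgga
HSPB1, chr7:76302423-76302672, plus strand: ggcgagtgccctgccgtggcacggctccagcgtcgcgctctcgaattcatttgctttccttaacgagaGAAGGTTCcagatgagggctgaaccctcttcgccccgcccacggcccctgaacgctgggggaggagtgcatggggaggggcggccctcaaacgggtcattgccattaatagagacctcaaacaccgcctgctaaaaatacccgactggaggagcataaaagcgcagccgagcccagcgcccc
HSPA8, chr11:123062137-123062386, minus strand: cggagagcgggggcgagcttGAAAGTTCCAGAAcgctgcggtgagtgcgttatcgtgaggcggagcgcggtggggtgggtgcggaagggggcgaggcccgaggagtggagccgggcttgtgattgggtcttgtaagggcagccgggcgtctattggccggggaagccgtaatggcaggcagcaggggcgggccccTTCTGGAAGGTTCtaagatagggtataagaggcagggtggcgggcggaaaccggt
HSP90AA1, chr14:102087045-102087294, minus strand: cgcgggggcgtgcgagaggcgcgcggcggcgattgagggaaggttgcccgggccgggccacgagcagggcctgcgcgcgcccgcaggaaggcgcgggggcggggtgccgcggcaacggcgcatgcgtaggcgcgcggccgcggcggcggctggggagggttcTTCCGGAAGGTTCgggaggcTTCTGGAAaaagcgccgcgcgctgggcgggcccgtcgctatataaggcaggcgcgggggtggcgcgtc
HSPD1, chr2:197499841-197500090, minus strand: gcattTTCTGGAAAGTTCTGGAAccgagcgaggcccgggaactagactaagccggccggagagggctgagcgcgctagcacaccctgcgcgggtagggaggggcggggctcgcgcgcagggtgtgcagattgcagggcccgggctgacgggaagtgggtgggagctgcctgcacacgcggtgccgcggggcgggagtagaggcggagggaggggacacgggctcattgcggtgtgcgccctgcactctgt

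The single match of HSPA1A began 106 bases before the start and that of HSPA1B 105 bases before it. These 2 windows shared 235 of 250 bases (94%). The match of HSPB1 began 182 bases before its start. The HSP90AA1 window lies before the start of its shorter transcript, inside the listed gene, and the window before its upstream start had no match. HSPD1 and HSPE1 lie head to head on chromosome 2, and the run of HSPD1 stood before its inner start. A match is a description of the letters and not of a bound site.

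Before the members are compared, the state of the libraries matters. Their estimated depth ranged from 15028215 to 22478123 reads. The PC-3 and epithelial markers KRT8, KRT18, KRT19, EPCAM, CDH1, VIM and CD44 were all at or above 148.5 CPM (counts per 1000000 reads) in every library. The leukocyte marker PTPRC, the fibroblast marker DCN and the endothelial marker VWF stayed at or below 0.489, 0.264 and 0.158 CPM, although CD68, COL1A1 and PECAM1 were present at up to 128, 83.0 and 32.7 CPM. Both treated day-7 libraries stood apart from the other 5. Among genes with at least 10 CPM, the median log2 ratio to untreated was -0.25 under CONV-TOPO and -0.23 under EE-TOPO on day 7, against 0.01 and 0.01 on day 3. Transcript length, gene span and GC content together accounted for 16.5% and 29.8% of the variance in log2 ratios of the 2 regimens on day 3 and for 53.9% and 47.9% on day 7. TMM scaling, which sets libraries to a common level by a trimmed mean of gene-wise ratios, moved every day-7 log2 ratio up by 0.25 under CONV-TOPO and by 0.22 under EE-TOPO. TMM values are therefore given beside the members where the direction turns. On day 3 this concerned EE-TOPO, where the ratios of HSP90AA1, HSP90AB1, HSPB1, HSPD1 and DNAJB1 to untreated were 1.003 to 1.025 and turned to 0.956 to 0.977 with TMM scaling.

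Untreated spheroids expressed all 10 genes at high level. Compared per kilobase of the canonical transcript, HSP90AB1 was the highest member on day 0 (612 CPM per kb), followed by HSPA8 (599 CPM per kb), HSP90AA1 (473 CPM per kb) and HSPB1 (269 CPM per kb). HSPD1 stood at 169 CPM per kb, HSPE1 at 122 CPM per kb, DNAJB1 at 105 CPM per kb, HSPA1A at 101 CPM per kb, HSPA1B at 92.1 CPM per kb and BAG3 at 85.8 CPM per kb. HSP90AB1 was first in all 3 untreated and both treated day-3 libraries. In both treated day-7 libraries HSPB1 was first, at 524 CPM per kb under CONV-TOPO and 585 CPM per kb under EE-TOPO, and HSP90AB1 second at 477 and 533.5 CPM per kb. BAG3 was last in all 7 libraries. Without replicates, the spread of a level between spheroids of 1 condition is not known, and neighbours such as HSPA1A and HSPA1B or HSP90AB1 and HSPA8 on day 0 cannot be ordered beyond it.

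**Figure D1:**
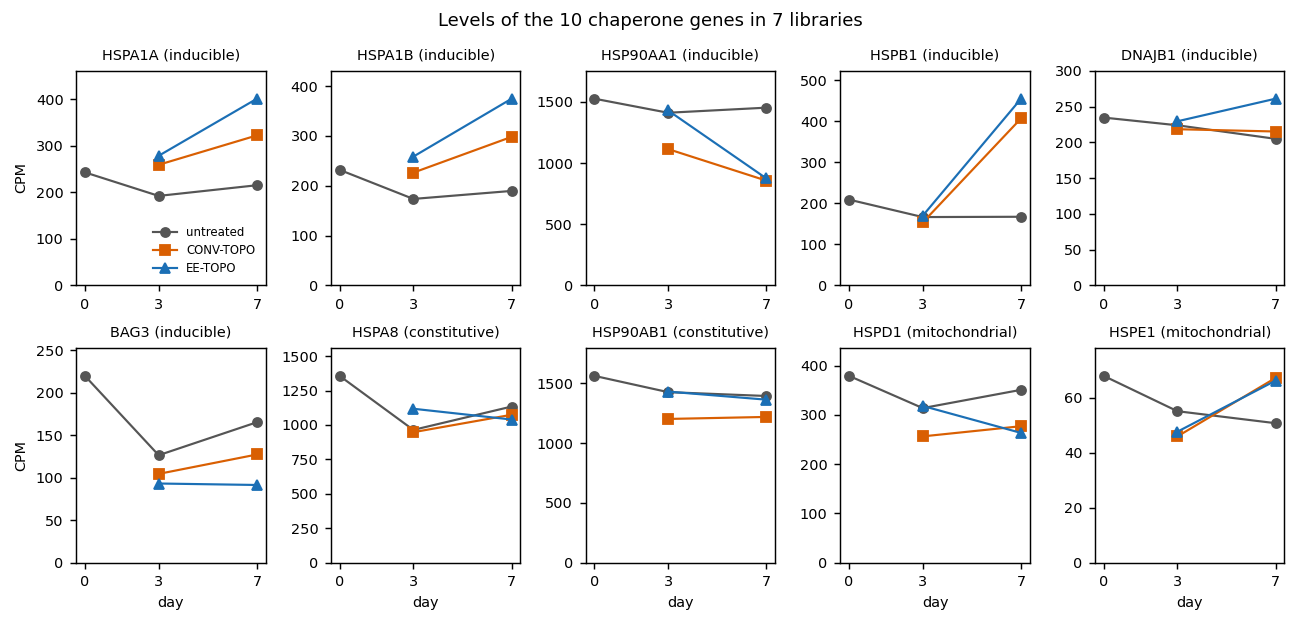
CPM (vertical axes, from 0) of each of the 10 genes by day (horizontal axes) in the 3 untreated, 2 CONV-TOPO and 2 EE-TOPO libraries, each point 1 library, with no error bars because there are no replicates. HSPB1, HSPA1A and HSPA1B are higher in both treated day-7 libraries than in any untreated library, and HSP90AA1 is lower.

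The untreated libraries themselves differed by day. All 10 members were lower in the untreated libraries of days 3 and 7 than in that of day 0, a pattern of 25.2% of all genes with at least 10 CPM. With TMM scaling it again held for 10 of 10 members, against 38.9% of genes. BAG3 had the lowest ratio on day 3, 0.575 (95% interval 0.547 to 0.604) of its day-0 level, and HSPA8 followed at 0.710 (0.697 to 0.724). DNAJB1 was nearest to its day-0 level on day 3, at 0.954 (0.915 to 0.995). On day 7 the ratios to day 0 lay between 0.746 (HSPE1) and 0.952 (HSP90AA1). With a single day-0 library, time in culture and that library cannot be told apart. Treated libraries are therefore set against their same-day untreated library, and the day-0 level of each member is printed with its values. Every member had its highest untreated level on day 0, so ratios to day 0 are lower, and some then fall below 1.

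At a 2-fold threshold, HSPB1 was the only member past it. It was counted as higher in both day-7 libraries, where 3.89% of genes were at least 2-fold higher under CONV-TOPO and 5.06% under EE-TOPO. No member was at least 2-fold lower on day 7, against 14.9% of genes under CONV-TOPO and 15.6% under EE-TOPO. On day 3, 0 of 10 members were 2-fold higher or lower. With CONV-TOPO 0.454% of genes were 2-fold higher and 0.237% lower on that day, and with EE-TOPO 1.46% and 0.403%. With TMM scaling HSPA1A and HSPA1B also passed 2-fold under EE-TOPO on day 7, at 2.18-fold and 2.31-fold. The share of genes past 2-fold on that scale was not counted. At 1.5-fold on day 7, HSPA1B and HSPB1 were higher under CONV-TOPO (13.1% of genes) and HSPA1A, HSPA1B and HSPB1 under EE-TOPO (14.8% of genes). HSP90AA1 was 1.5-fold lower under CONV-TOPO (32.7% of genes), and HSP90AA1 and BAG3 under EE-TOPO (32.3% of genes). No member passed 1.5-fold on day 3, where 3.14% of genes were higher and 1.7% lower under CONV-TOPO and 7.51% and 3.17% under EE-TOPO.

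**Figure D2:**
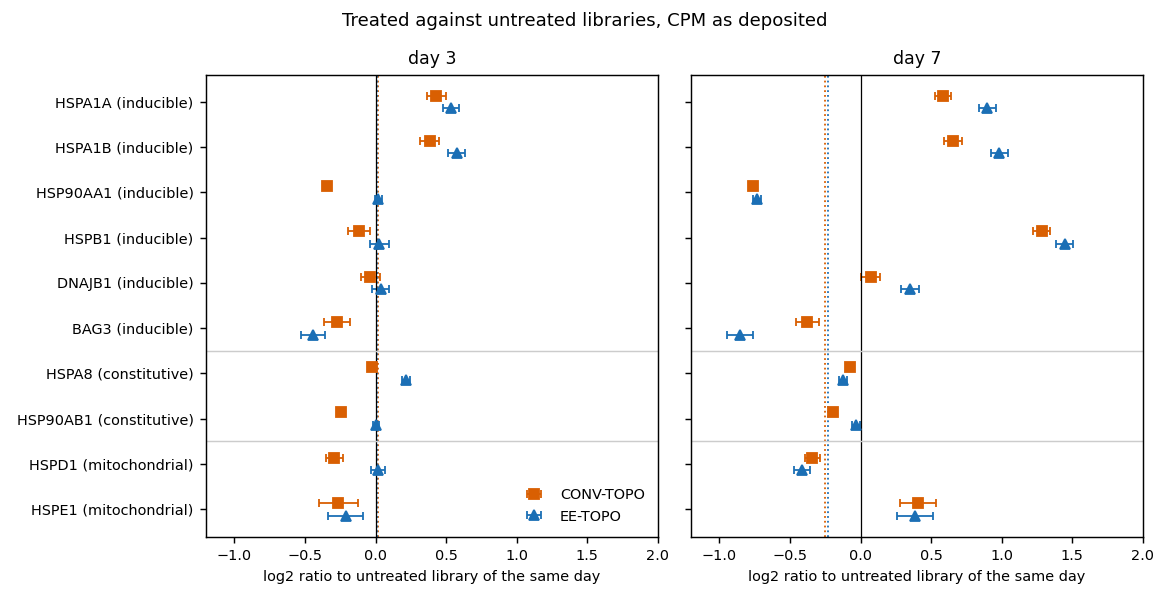
Log2 ratio of CPM to the untreated library of the same day (horizontal axes) for each gene in the CONV-TOPO and EE-TOPO libraries of day 3 and day 7, with bars for exact 95% intervals of counting error and dotted lines for the median of all genes. HSPA1A and HSPA1B lie right of 0 in all 4 treated libraries, HSPB1 under both regimens on day 7 only, and HSP90AA1, BAG3 and HSPD1 lie left of the medians on day 7.

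HSPA1A and HSPA1B, near-identical copies on chromosome 6 that encode the same inducible HSP70 protein, were higher than untreated on both days and under both regimens. Without drug, HSPA1A stood at 243, 192 and 215 CPM on successive sampling days. Its CONV-TOPO values were 259 CPM (day 3) and 323 CPM (day 7), and its EE-TOPO values 279 and 402 CPM. All 4 treated libraries were above all 3 untreated ones for HSPA1A, the only such member, against 4.38% of genes. This separation was lost with TMM scaling, where the CONV-TOPO library of day 3 stood at 0.975 of the untreated day-0 library. HSPA1B was at 232, 173 and 190 CPM without drug, at 226 and 298 CPM under CONV-TOPO and at 258 and 375 CPM under EE-TOPO. For HSPA1B the day-3 CONV-TOPO value lay below the untreated day-0 value, and the other 3 treated libraries were above every untreated one.

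Reads of the 2 copies can be assigned to either. The sum of both genes was a whole number of reads, within 0.1 read, in 7 of 7 libraries, whereas HSPA1A alone and HSPA1B alone were whole in 2 of 7 each. HSPA1A took 51.2% to 53.4% of the sum in every library, so the ratios that follow are those of the sum, and later values of either gene alone carry this uncertainty. The sum was at 475, 366 and 405 CPM in untreated spheroids of days 0, 3 and 7. CONV-TOPO spheroids held 486 CPM on day 3, a ratio to untreated of 1.33 (95% interval 1.28 to 1.37), and 621 CPM on day 7, a ratio of 1.53 (1.49 to 1.58). EE-TOPO spheroids held 537 CPM on day 3, a ratio of 1.47 (1.43 to 1.51), and 776 CPM on day 7, a ratio of 1.92 (1.86 to 1.97). EE-TOPO was above CONV-TOPO on both days, with a ratio of 1.11 (1.07 to 1.14) on day 3 and of 1.25 (1.22 to 1.28) on day 7. TMM scaling kept these directions, with ratios to untreated of 1.29 and 1.83 for CONV-TOPO and 1.40 and 2.24 for EE-TOPO. Against day 0, the CONV-TOPO library of day 3 was at 1.07 for HSPA1A and 0.976 for HSPA1B, turning to 0.975 and 0.892 with TMM scaling. Fractional reads were not particular to this pair. HSP90AB1 and HSPD1 were whole in 1 of 7 libraries each, HSP90AA1 in 2 and HSPA8 in 3. DNAJB1 was whole in 5, HSPE1 in 6, and HSPB1 and BAG3 in 7. How reads of the other fractional members were assigned is not known either.

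HSPB1 was above untreated on day 7 and near it on day 3. This small heat shock protein, which holds unfolded protein and binds actin, was at 209, 166 and 167 CPM in untreated spheroids of days 0, 3 and 7. On day 3 it was at 153 CPM under CONV-TOPO and 169 CPM under EE-TOPO, which was 0.921 (95% interval 0.873 to 0.972) and 1.02 (0.972 to 1.07) of the same-day untreated level, the latter turning to 0.971 with TMM scaling. On day 7 it was at 407 CPM under CONV-TOPO, 2.44-fold of untreated (2.33 to 2.54), and at 455 CPM under EE-TOPO, 2.72-fold (2.61 to 2.84). Both treated day-7 libraries were thus above the other 5, while on day 3 CONV-TOPO lay below the untreated range and EE-TOPO within it. Of all genes with at least 10 CPM, 23.6% were above all untreated libraries in both treated day-7 libraries. The members among them were HSPA1A, HSPA1B and HSPB1, and with TMM scaling HSPE1 and DNAJB1 were added, against 32.6% of genes. Those below all untreated libraries in both were HSP90AA1, HSP90AB1 and HSPD1, against 49.1% of genes, and with TMM scaling HSP90AA1 alone, against 37.1%. HSPB1 has a short, GC-rich transcript of 777 bases, and genes of its length, span and GC content had a fitted log2 ratio of 1.04 under CONV-TOPO and 1.02 under EE-TOPO on day 7. Its own values were 1.28 and 1.44, which left 0.24 and 0.43.

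**Figure D3:**
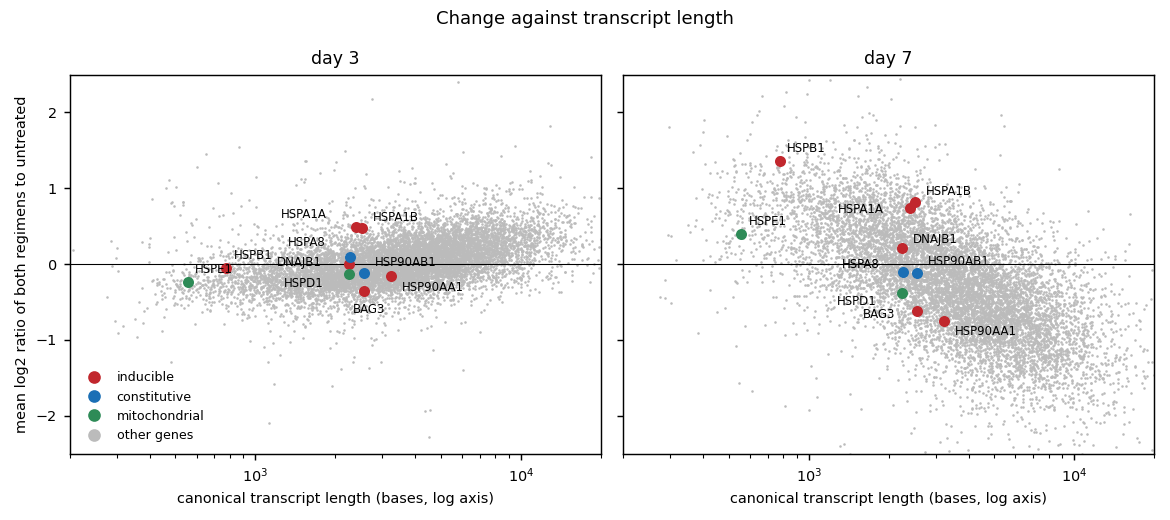
Mean log2 ratio of both regimens to untreated (vertical axis) against the length of the canonical transcript in bases (horizontal log axis) for genes with at least 10 CPM (grey) and the 10 chaperone genes (coloured by class) on day 3 and day 7. On day 7 short transcripts lie higher than long ones, and HSPB1, of 777 bases, is the highest chaperone gene, while HSPE1, of 557 bases, is lower than it.

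The same correction left HSPA1A and HSPA1B higher in all 4 treated libraries. After subtraction of the values fitted from length, span and GC content, their log2 ratios were 0.46 and 0.41 under CONV-TOPO and 0.65 and 0.68 under EE-TOPO on day 3. On day 7 they were 0.22 and 0.35 under CONV-TOPO and 0.49 and 0.64 under EE-TOPO. Day-7 values of HSPE1, the shortest transcript, were 0.05 and 0.06 after subtraction.

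The co-chaperones of HSP70 lay on different sides of untreated under EE-TOPO on day 7. DNAJB1, the HSP40 partner, was at 235, 224 and 205 CPM in untreated spheroids of days 0, 3 and 7, at 218 and 215 CPM in the CONV-TOPO libraries of days 3 and 7 and at 230 and 261 CPM under EE-TOPO. Only the EE-TOPO library of day 7 lay above the untreated range, 1.27-fold of the same-day untreated library (95% interval 1.22 to 1.33). With TMM scaling the CONV-TOPO library of day 7 did too, at 1.02 of the day-0 level. BAG3 was at 220, 126 and 165 CPM without drug. It was at 104 and 127 CPM in the CONV-TOPO libraries of days 3 and 7 and at 93.0 and 91.3 CPM under EE-TOPO. Relative to untreated of the same day, BAG3 was 0.826 (0.775 to 0.881) under CONV-TOPO and 0.736 (0.694 to 0.781) under EE-TOPO on day 3, and 0.770 (0.728 to 0.814) and 0.553 (0.518 to 0.589) on day 7. The ratios stayed below 1 in all 4 treated libraries with TMM scaling, at 0.800, 0.702, 0.917 and 0.645 in the same order. BAG3 under EE-TOPO was below CONV-TOPO on both days, 0.891 (0.835 to 0.952) on day 3 and 0.718 (0.670 to 0.769) on day 7. Genes of its length, span and GC content had a fitted log2 ratio of 0.13 under EE-TOPO on day 7, so that BAG3, at -0.86, lay 0.98 below them.

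The 2 cytosolic HSP90 genes differed from each other on day 7. HSP90AA1, the inducible HSP90 alpha, was at 1526, 1411 and 1453 CPM in untreated spheroids of days 0, 3 and 7. It was at 1114 CPM under CONV-TOPO on day 3, 0.790 of untreated (95% interval 0.775 to 0.805), and at 1430 CPM under EE-TOPO, 1.01 of untreated (0.997 to 1.03), turning to 0.966 with TMM scaling. On day 7 it was at 856 CPM under CONV-TOPO, 0.589 of untreated (0.577 to 0.601), and at 874 CPM under EE-TOPO, 0.602 of untreated (0.589 to 0.614). Both day-7 values were the lowest of all 7 libraries, a pattern of 45.2% of genes. HSP90AB1 was at 1563, 1426 and 1394 CPM without drug, at 1202 and 1219 CPM in the CONV-TOPO libraries of days 3 and 7 and at 1431 and 1363 CPM under EE-TOPO. Its day-7 ratios were 0.874 (0.858 to 0.890) under CONV-TOPO and 0.978 (0.960 to 0.996) under EE-TOPO, and they turned to 1.04 and 1.14 with TMM scaling. HSP90AA1 stayed below untreated on that scale, at 0.702 under both regimens. With TMM scaling all 4 treated libraries were below all 3 untreated ones for HSP90AA1, the only such member, against 6.91% of genes. In CPM as deposited this did not hold, as the day-3 EE-TOPO value lay within the untreated range. Genes of the length, span and GC content of HSP90AA1 had fitted day-7 log2 ratios of -0.52 under CONV-TOPO and -0.53 under EE-TOPO. Its own values were -0.76 and -0.73, which left -0.24 and -0.21. For HSP90AB1 the fitted values were -0.07 and -0.04, which left -0.13 and 0.01. The HSP90AA1 span of 59.0 kb includes an upstream start and overlaps WDR20 on the other strand by 327 bases, where reads of the 2 genes cannot be told apart without strand.

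HSPA8, the constitutive HSP70 that also uncoats clathrin vesicles, was at 1357, 964 and 1134 CPM in untreated spheroids of days 0, 3 and 7. It was at 947 and 1074 CPM in the CONV-TOPO libraries of days 3 and 7 and at 1118 and 1039 CPM under EE-TOPO. All 4 treated values lay within or just below the untreated range. Its ratio to untreated was 0.983 (95% interval 0.961 to 1.00) under CONV-TOPO and 1.16 (1.14 to 1.18) under EE-TOPO on day 3. On day 7 it was 0.947 (0.929 to 0.966) and 0.917 (0.898 to 0.936), turning to 1.13 and 1.07 with TMM scaling. Against the untreated day-0 level, HSPA8 under EE-TOPO on day 3 was at 0.824 (0.810 to 0.838). With TMM scaling its day-7 values were 0.880 and 0.835 of day 0.

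The mitochondrial partners lay on opposite sides of untreated on day 7. HSPD1 was at 380, 314 and 351 CPM in untreated spheroids of days 0, 3 and 7, at 256 and 277 CPM in the CONV-TOPO libraries of days 3 and 7 and at 318 and 263 CPM under EE-TOPO. Its day-7 ratios were 0.789 (95% interval 0.760 to 0.820) under CONV-TOPO and 0.750 (0.721 to 0.781) under EE-TOPO, and 0.940 and 0.876 with TMM scaling. HSPE1 was at 68.0, 55.1 and 50.7 CPM without drug, at 45.9 and 67.3 CPM under CONV-TOPO and at 47.6 and 66.3 CPM under EE-TOPO. On day 3 it was 0.833 (0.756 to 0.918) of untreated under CONV-TOPO and 0.865 (0.793 to 0.942) under EE-TOPO, and on day 7 it was 1.33-fold (1.22 to 1.45) and 1.31-fold (1.19 to 1.43). The day-7 values were 0.990 and 0.975 of the untreated day-0 level, turning to 1.10 and 1.06 with TMM scaling. Of the 2 genes only HSPE1 has a short transcript, and after the fit of length, span and GC content its day-7 log2 ratios were 0.05 and 0.06 while those of HSPD1 were -0.18 and -0.27. HSPE1 lies wholly within the listed readthrough gene HSPE1-MOB4, which was at 0.366 CPM on average, so reads between them are uncertain.

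Ratios of partner genes within a library do not depend on its scaling, but they keep any trend with transcript length, gene span and GC content. The sum of HSPA1A and HSPA1B was 0.350, 0.380 and 0.357 of HSPA8 in CPM in untreated spheroids of days 0, 3 and 7. It was 0.512 (95% interval 0.498 to 0.527) under CONV-TOPO on day 3, 0.578 (0.564 to 0.592) on day 7, 0.480 (0.470 to 0.491) under EE-TOPO on day 3 and 0.747 (0.729 to 0.765) on day 7. All 4 treated libraries were above all 3 untreated ones, and none of these intervals, which cover counting error only, reached the untreated ones. How many other gene pairs separate likewise was not counted. The day-7 log2 ratios fitted from length, span and GC content for HSPA1A, HSPA1B and HSPA8 were 0.37, 0.30 and -0.02 under CONV-TOPO. Under EE-TOPO they were 0.40, 0.34 and 8.7e-05, so on day 7 the fitted trend was higher for the pair than for HSPA8. HSP90AA1 to HSP90AB1 was 0.977, 0.989 and 1.04 without drug, 0.927 and 0.702 under CONV-TOPO on days 3 and 7, and 1.00 and 0.641 under EE-TOPO. Here day 7 was below the untreated range under both regimens, and day 3 under EE-TOPO lay within it. HSPD1 to HSPE1 was 5.58, 5.70 and 6.92 without drug, 5.58 and 6.68 on day 3 under CONV-TOPO and EE-TOPO, and 4.12 and 3.97 on day 7. DNAJB1 to HSPA8 was 0.173, 0.232 and 0.181 without drug and 0.200 to 0.251 with treatment, and the ranges overlapped. No test was made of these ratios, as each rests on 1 library per treatment and day.

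**Figure D4:**
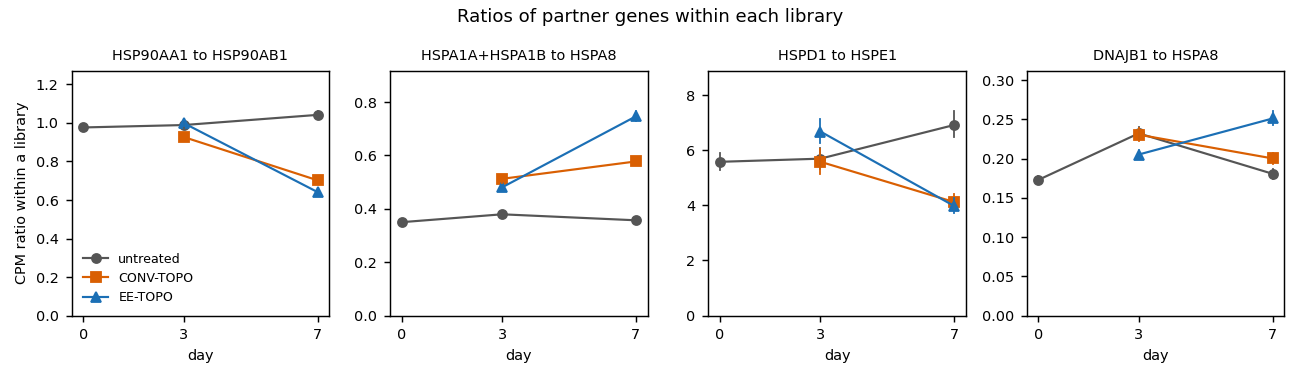
CPM ratio of 2 partner genes within a library (vertical axes, from 0) by day, each point 1 library, with vertical bars for exact 95% intervals of counting error, which are often smaller than the points. HSPA1A+HSPA1B to HSPA8 is 0.350 to 0.380 in untreated and 0.480 to 0.747 in treated libraries, while HSP90AA1 to HSP90AB1 and HSPD1 to HSPE1 are lower in the treated libraries on day 7.

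As classes, the inducible genes were not uniform. Averaged over both regimens, the median log2 ratio of the 6 inducible genes was -0.02 on day 3 and 0.48 on day 7, with a day-7 range from -0.75 (HSP90AA1) to 1.36 (HSPB1). With HSPA1A and HSPA1B counted as 1 gene the day-7 median was 0.21, and after removal of the trend with length, span and GC content it was also 0.21. The median of the 2 constitutive genes was -0.01 on day 3 and -0.11 on day 7, and that of the 2 mitochondrial genes -0.19 and 0.01. With TMM scaling the day-7 medians were 0.71 for inducible, 0.13 for constitutive and 0.25 for mitochondrial genes, so the sign of the constitutive class depends on the scaling. On day 7 the inducible class thus held the highest members and also, with HSP90AA1 and BAG3, the lowest.

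EE-TOPO and CONV-TOPO were also set against each other. On day 3 the median log2 ratio of the 10 members was 0.17 for EE-TOPO to CONV-TOPO. It was 0.02 for EE-TOPO and -0.18 for CONV-TOPO to untreated. On day 7 these medians were 0.095, 0.16 and -0.004. With TMM scaling they were 0.15, -0.05 and -0.23 on day 3 and 0.07, 0.38 and 0.25 on day 7. On day 3, 9 of 10 members were higher under EE-TOPO than under CONV-TOPO, the exception being BAG3, where 52.0% of genes were higher. The ratio was highest for HSP90AA1, 1.28 (95% interval 1.26 to 1.31), and HSPD1, 1.24 (1.19 to 1.29). On day 7, 6 of 10 were higher, against 51.9% of genes, from HSPA1B at 1.26 (1.21 to 1.31) to HSP90AA1 at 1.02 (0.997 to 1.05). No member differed 1.5-fold between the regimens on either day, where 2.18% of genes were higher and 1.38% lower under EE-TOPO on day 3 and 2.0% and 1.48% on day 7.

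To ask whether a regimen moved the genes over both days, a limma model with treatment and day was fitted to log2(TMM-scaled CPM + 1) of 14731 genes in the 6 libraries of days 3 and 7. How far an effect varied from day 3 to day 7 sets its error, on 2 residual degrees of freedom. No gene passed an adjusted p of 0.05 in any of the 3 comparisons, so 0 of 10 members did, against 0.0% of genes. For EE-TOPO against untreated 525 genes had an unadjusted p under 0.05, for CONV-TOPO against untreated 254 and for EE-TOPO against CONV-TOPO 129. Among the members, HSPA1A and HSPA1B were higher at an unadjusted p under 0.05 under EE-TOPO (2.31% of genes were higher at that level) and BAG3 was lower (1.25% of genes). HSPA1A had a log2 fold change of 0.79 (SE 0.26, limma adjusted p = 0.907) and HSPA1B of 0.85 (SE 0.27, limma adjusted p = 0.907). BAG3 had a log2 fold change of -0.57 (SE 0.22, limma adjusted p = 0.907). With CONV-TOPO the values of HSPA1A, HSPA1B and BAG3 were 0.61, 0.62 and -0.22, and no member had an unadjusted p under 0.05 there (1.07% of genes higher and 0.652% lower) or between the regimens (0.658% and 0.217%). HSPB1, which was near untreated on day 3, had 0.81 (SE 0.45) under EE-TOPO and 0.68 (SE 0.45) under CONV-TOPO, the largest SE of the 10 members. Leaving out the untreated library of day 3 changed the HSPB1 estimate to 1.66 under EE-TOPO and 1.53 under CONV-TOPO. Leaving out that of day 7 changed it to -0.039 and -0.17. Either fit keeps a single untreated library, and its error comes from the 2 regimens.

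The wider chaperone network is described by 6 further gene lists and 1 list of handling genes, of which 0 genes passed the adjusted threshold in limma in any comparison. Their counts stand against all genes with at least 10 CPM, of which 52.0% under CONV-TOPO and 51.0% under EE-TOPO were higher than untreated on day 3 (48.0% and 49.0% lower), and 36.9% and 38.1% on day 7 (63.1% and 61.9% lower). With TMM scaling, 45.3% and 43.0% were higher on day 3 (54.7% and 57.0% lower) and 50.0% and 49.6% on day 7 (50.0% and 50.4% lower). Among the regulators, HSF1 was at 170, 194 and 160 CPM in untreated spheroids of days 0, 3 and 7, at 183 and 268 CPM in the CONV-TOPO libraries of days 3 and 7 and at 162 and 272 CPM under EE-TOPO. HSF1 was above the untreated range on day 7 only, at 1.67-fold and 1.7-fold. Of genes with at least 10 CPM, 23.6% were above all untreated libraries in both treated day-7 libraries. At least 1.5-fold higher on day 7 were 13.1% under CONV-TOPO and 14.8% under EE-TOPO. Of the 4 regulators listed, 2 had at least 10 CPM. HSBP1, which binds HSF1, was at 0.913 to 1.03 of untreated. Of the other heat-inducible genes, 15 of 19 had at least 10 CPM, and 3 of 15 were higher than untreated on day 3 (52.0% and 51.0% of all genes) and 10 of 15 on day 7 (36.9% and 38.1%) under each regimen. With TMM scaling the counts were 2 under CONV-TOPO and 1 under EE-TOPO on day 3 and 12 and 11 on day 7. The named ones with the highest values were DEDD2, at 1.68-fold and 1.89-fold on day 7, and SERPINH1, the collagen chaperone, at 1.36-fold and 1.54-fold. HSPA4L was at 0.465 and 0.454 of untreated on day 7 and CHORDC1, a co-chaperone of HSP90, at 0.586 and 0.556.

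Of the other cytosolic co-chaperones, 22 of 24 had at least 10 CPM, and on day 7 the numbers higher than untreated were 10 under CONV-TOPO and 12 under EE-TOPO (36.9% and 38.1% of all genes), turning to 17 and 18 with TMM scaling (50.0% and 49.6%). DNAJB2 was 1.68-fold under both regimens, and HSPBP1, which exchanges the nucleotide of HSP70, was 1.80-fold under CONV-TOPO and 2.06-fold under EE-TOPO on day 7 but 0.709 and 0.693 on day 3. FKBP5 was at 0.654 and 0.621 on day 7 and HSPA4, an HSP110 protein, at 0.659 and 0.560. On day 3, 17 and 15 of the 22 were lower than untreated (48.0% and 49.0% of all genes).

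Among 14 other mitochondrial chaperones and proteases, 12 were lower than untreated under CONV-TOPO and 11 under EE-TOPO on day 3 (48.0% and 49.0% of all genes). On day 7, 10 were lower under each regimen, near the share of all genes (63.1% and 61.9%), and 6 and 7 with TMM scaling (50.0% and 50.4%). The protease CLPP was 1.90-fold and 1.79-fold and HTRA2 1.29-fold and 1.52-fold on day 7, while CLPX, the unfoldase partner of CLPP, was at 0.748 and 0.601. GRPEL2, a nucleotide exchange factor, was at 0.680 and 0.949. CLPP and CLPX thus lay on opposite sides of untreated on day 7, as HSPE1 and HSPD1 did.

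Chaperones of the endoplasmic reticulum were mostly higher than untreated on day 3. Of 15 genes, 15 were higher than untreated under EE-TOPO (51.0% of all genes) and 10 under CONV-TOPO (52.0%), with medians of log2 ratio of 0.21 and 0.09, and 13 and 10 were higher with TMM scaling (43.0% and 45.3%). The untreated library of day 3 was itself below that of day 0 in 14 of the 15, with a median log2 ratio of -0.33, a larger difference than that between treated and untreated on day 3. On day 7, 5 of 15 were higher under EE-TOPO and 7 of 15 under CONV-TOPO (38.1% and 36.9% of all genes), which turned to 9 and 11 with TMM scaling (49.6% and 50.0%). SDF2L1 was 2.33-fold under CONV-TOPO and 2.08-fold under EE-TOPO on day 7, and DNAJB9, a partner of BiP, 1.32-fold and 1.49-fold on day 3. HSP90B1, the HSP90 of this compartment, was at 0.660 and 0.542 and the lectin chaperone CANX at 0.644 and 0.672 on day 7.

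The chaperonin TRiC and prefoldin, which fold actin and tubulin, were lower than untreated on day 3 in 12 of 14 genes under CONV-TOPO and 13 of 14 under EE-TOPO (48.0% and 49.0% of all genes), with medians of log2 ratio of -0.31 and -0.30 against 0.01 for all genes. With TMM scaling 12 and 14 genes were lower (54.7% and 57.0% of all genes). CCT2 was at 0.656 and 0.705, VBP1 at 0.787 and 0.772 and PFDN2 at 0.735 and 0.743 on day 3. On day 7 the prefoldin subunit PFDN6 was 2.43-fold and 2.16-fold, PFDN2 1.55-fold and 1.5-fold, and VBP1 0.715 and 0.683.

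**Figure D5:**
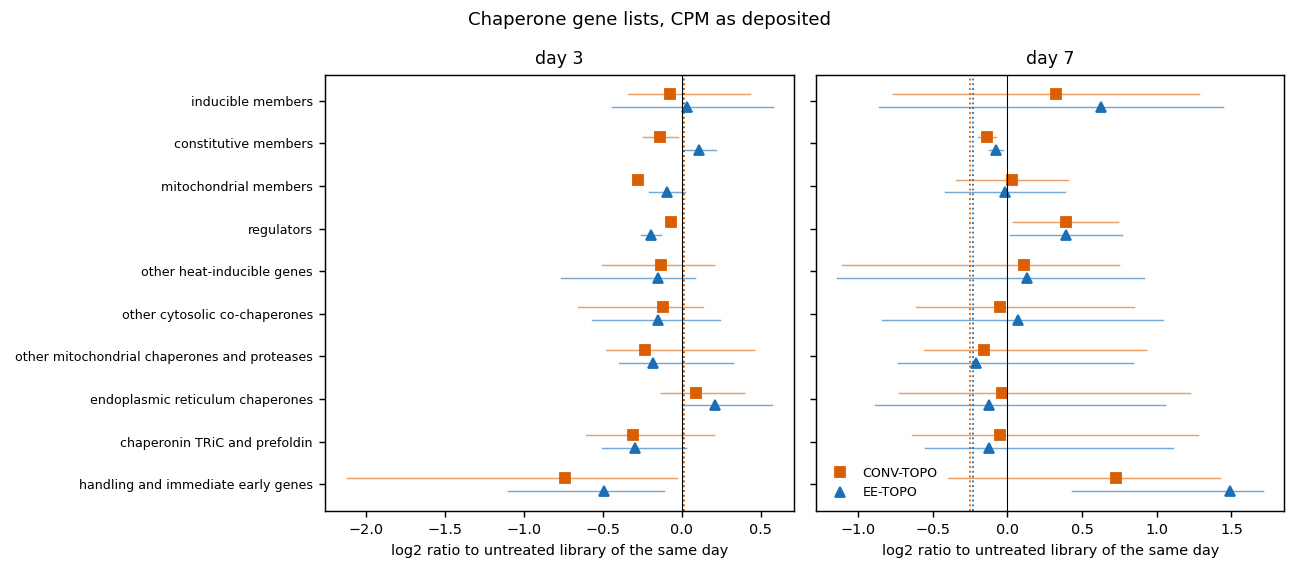
Median (points) and range (lines) of the log2 ratio to the untreated library of the same day (horizontal axes) over genes of each list with at least 10 CPM in the CONV-TOPO and EE-TOPO libraries of day 3 and day 7, with dotted lines for the median of all genes. On day 3 the endoplasmic reticulum list has the highest medians under EE-TOPO and CONV-TOPO and TRiC with prefoldin lies at -0.31 and -0.30, while on day 7 the inducible members have a median of 0.33 under CONV-TOPO and 0.62 under EE-TOPO.

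Immediate early genes, which respond to handling of cells as well as to stress, also differed between libraries. JUNB was at 132, 231 and 123 CPM in untreated spheroids of days 0, 3 and 7, at 205 and 329 CPM under CONV-TOPO and at 213 and 393 CPM under EE-TOPO on days 3 and 7. IER2 was 1.72-fold and 1.58-fold of untreated on day 7. ATF3 was at 124 CPM in the untreated library of day 3 and at 15.1 and 16.6 CPM in those of days 0 and 7, so that its ratio to untreated was 0.229 and 0.465 on day 3 and 1.59 and 3.28 on day 7. FOS was at 22.5, 14.95 and 13.1 CPM without drug and at 4.67 to 9.97 CPM with treatment. Of the handling genes with at least 10 CPM, 6 of 6 under CONV-TOPO and 5 of 5 under EE-TOPO were lower than untreated on day 3 (48.0% and 49.0% of all genes). The untreated library of day 3 was itself above that of day 0 in 5 of 6. On day 7, 5 of 6 and 5 of 5 were higher than untreated (36.9% and 38.1% of all genes), beside HSPA1A, HSPA1B and HSPB1. The part of these genes in the chaperone values was not tested.

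The patterns over the 7 libraries were also matched with other genes, for 1 member of each of 3 roles, as the root-mean-square difference of centred log2(TMM-scaled CPM + 1) among 9984 genes with at least 10 CPM on average. HSPA8 was nearest to PDIA4 (0.02), PDIA6 (0.05) and AIF1L (0.07). The first 2 are disulfide isomerases of the endoplasmic reticulum, which were not chosen by compartment. HSPD1 was nearest to ATPSCKMT (0.05), EPCAM (0.06) and CCT5 (0.06), a TRiC subunit. DNAJB1 was nearest to ATP1B3 (0.05), REXO4 (0.05) and TXNDC12 (0.05), while its partners HSPA1A and HSPA8 were at 0.28 and 0.18. HSPA1A and HSPA1B, which share reads, were at 0.04 from each other.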

How the data were processed

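RNA of PC-3 spheroids was sequenced by the authors from paired-end TruSeq v2 libraries, which do not mark strand, and mapped to hg38 with STAR. The submitters' processing notes name hg38 and Partek. Their deposited values are CPM of 18144 genes in 1 table, with 0.0001 added by the authors and subtracted here. How reads of near-identical genes were assigned and whether counting used strand are not given in the sources used here. The later time point is called day 7 after the labels, although the study's text describes an exposure of 6 weeks, and which of the 2 holds for these libraries is not known.

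Low values lie on steps of 1 read, which gave depths of 15028215 to 22478123 reads. Since 88.7% to 90.0% of low values were whole, within 0.02 of a step, no count test was run. A gene listed at 0 had no counted read, though its RNA may have been present below detection. A floor of 3 reads corresponds to 0.133 to 0.200 CPM. Ratios of 2 libraries have exact conditional binomial intervals at 95% (scipy 1.17.1), covering counting error only. The fit used limma 3.58.1 (R 4.3.3), empirical Bayes with a mean-variance trend, Benjamini-Hochberg adjustment, two-sided p and genes that reached 0.565 CPM (10 reads in a fitted library of median depth) in 2 or more libraries. It was tested on simulated data. Scaling factors (TMM, median of ratios) were derived from CPM. Ratios were counted over genes whose mean CPM in the pair reached 10. Transcripts came from GENCODE 44 and promoters and starts from RefSeq (GRCh38.p14), where all 10 members matched. The trend with length, span and GC content used natural splines with 3 degrees of freedom and was added after seeing the data.

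The members and lists were chosen with earlier results of these data known. Named genes were the 10 members, the 2 highest and 2 lowest of each list by mean log2 ratio over the 4 treated libraries among genes with at least 10 CPM, and the 3 nearest patterns of DNAJB1, HSPA8 and HSPD1. Alternatives covered scaling, baseline, pseudocount, filter, variance trend, day term, libraries in the fit and the fold threshold. KLK3, CD3E and CDH5 were not analysed here.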

Additional observations from a re-analysis of the deposited data

Results flagged for a closer look

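HSPE1, the mitochondrial co-chaperonin, lay on opposite sides of untreated on the 2 days under both regimens. Its ratio to the untreated library of the same day was 0.833 with CONV-TOPO and 0.865 with EE-TOPO on day 3, and 1.33 with CONV-TOPO and 1.31 with EE-TOPO on day 7. Single libraries stand behind these values, and the difference between days was not tested. After removal of the trend with transcript length, gene span and GC content, the log2 ratios were -0.03 and 0.10 on day 3 and 0.05 and 0.06 on day 7.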

How the results depend on the processing

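Every comparison rests on 1 library per treatment and day, so depth limits counting error only, and the spread between spheroids of 1 condition is not known. The fit pairs treated and untreated libraries by day through its day term. Of the alternatives that answer a comparison, 68 were scored as the same, 55 as moved and 12 as reversed in sign. For ratios of partner genes, moved means the same sign with a change beyond counting error. For calls of the fit it means a changed count. In the fit, the count of calls stayed at 0 in all 3 comparisons under other scalings, pseudocount, filter, no variance trend and no day term. With only the libraries of the 2 treatments compared it was 32 for EE-TOPO and 9 for CONV-TOPO against untreated and 94 for EE-TOPO against CONV-TOPO. Leaving out 1 library gave 0 to 6220, 0 to 6490 and 0 to 94 calls, with the highest values for EE-TOPO and CONV-TOPO without the untreated library of day 3. Without the untreated library of day 7 they were 597 and 131. In such a fit the lone untreated library is assumed to vary like the others, and the error comes from the 2 regimens.

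The direction of members near 0 depended on the choices. For EE-TOPO against untreated, the log2 fold change of HSPA8 (0.12) was -0.035 without the day term, and that of HSP90AB1 (0.06) was -0.014 with library totals and -0.017 without the day term. For CONV-TOPO, HSPA8 (0.05) was -0.051 with library totals and -0.10 without the day term. HSPE1 between the regimens (-0.01) was 0.015 with library totals. Leaving out 1 library gave, for EE-TOPO against untreated, -0.088 to 0.21 for HSP90AB1, -0.039 to 1.66 for HSPB1, -0.25 to 0.013 for HSPD1 and -0.29 to 0.62 for HSPE1. For CONV-TOPO it gave -0.082 to 0.19 for HSPA8, -0.27 to 0.034 for HSP90AB1, -0.17 to 1.53 for HSPB1, -0.28 to 0.63 for HSPE1 and -0.13 to 0.37 for DNAJB1. Between the regimens it gave -0.032 to 0.40 for HSPA1A, -0.065 to 0.20 for HSPA8, -0.030 to 0.37 for HSP90AA1, -0.30 to 0.56 for HSPB1, -0.066 to 0.25 for HSPD1, -0.27 to 0.25 for HSPE1 and -0.053 to 0.35 for DNAJB1. The cause of these reversals was not tested.

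Class medians (log2, mean of both regimens) moved with scaling, baseline and the trend. For inducible members, day 3 (-0.02) was -0.17 against day 0, 0.071 with the span trend removed and 0.095 with span, length and GC removed. Day 7 (0.48) was 0.71 with TMM, 0.27 against day 0, 0.42 against the mean of 3 untreated libraries, 0.20 with the span trend removed, 0.21 with HSPA1A and HSPA1B summed and 0.21 with all 3 trends removed. For constitutive members, day 3 (-0.01) was -0.071 with TMM, -0.33 against day 0, -0.16 against the mean, 0.11 without the span trend and 0.12 without all 3, and day 7 (-0.11) was 0.13, -0.32, -0.15, -0.40 and -0.077 in the same order. For mitochondrial members, day 3 (-0.19) was -0.24, -0.47, -0.30, -0.084 and 0.029, and day 7 (0.01) was 0.25, -0.26, -0.081, -0.24 and -0.086.

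Against day 0 and against the mean of 3 untreated libraries, the log2 change of HSP90AA1 to HSP90AB1 on day 7 (-0.64) was -0.54 and -0.58. That of HSPA1A+HSPA1B to HSPA8 on day 3 (0.39) was 0.50 and 0.46, and that of HSPD1 to HSPE1 on day 7 (-0.77) was -0.46 and -0.58. DNAJB1 to HSPA8 reversed on day 3 (-0.094) to 0.33 and 0.17, and on day 7 (0.31) it was 0.38 and 0.21. Against day 0, BAG3 was at 0.475 with CONV-TOPO and 0.423 with EE-TOPO on day 3 and at 0.415 with EE-TOPO on day 7. HSPB1 was at 1.95-fold of day 0 with CONV-TOPO on day 7. The shares of all genes past 2-fold against day 0 were not counted. The count of 1 member 2-fold higher with EE-TOPO on day 7 (5.06% of all genes) became 3 at 1.5-fold (14.8%). It also became 3 with TMM and with median-of-ratios factors, and 0 on day 7 under either regimen with all 3 trends removed. The shares of all genes past 2-fold on these other scales were not counted. At 1.5-fold, 2 members were higher (13.1% of all genes) and 1 lower (32.7%) with CONV-TOPO on day 7, and 2 lower (32.3%) with EE-TOPO.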
